A study of Mus musculus with 2 samples.

Results

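The 10 genes described here encode the protein kinases of the IκB kinase (IKK) family, their scaffold, a set of TNF receptor-associated factors (TRAFs) and the inhibitor-of-apoptosis protein encoded by Birc3. They were chosen by symbol, as Ikbke, Tbk1, Ikbkb, Chuk, Ikbkg, Traf1, Traf2, Traf3, Traf6 and Birc3, and all 10 were found among the 55536 genes of the annotation. RNA from the nuclear fraction of mouse macrophages grown from bone marrow (BMDM, strain C57BL/6J) was sequenced after ribosomal RNA depletion in 2 libraries of 1 group. The cells had been given 100 ng/ml Lipid A, the membrane-anchoring part of lipopolysaccharide that activates TLR4, for 12 hours, were washed and left without it for 12 hours, and then received 100 ng/ml Lipid A again for 20 minutes. The labels call the fraction nucleoplasmic in one field and nuclear in another. Neither age nor sex was collected, and both libraries carry the same donor label, so the spread between them may be technical. Replicate 1 started from 1 µg of RNA by its label and replicate 2 from 500 ng, so that input and replicate cannot be told apart. There was no unstimulated group, so the values are levels after this stimulation and no response to Lipid A was measured.

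IKK kinases carry signals from Toll-like and TNF family receptors to NF-κB and to interferon regulatory factors. IKKα (Chuk) and IKKβ (Ikbkb) form a complex with the regulatory subunit NEMO (Ikbkg), and that complex phosphorylates the IκB proteins that hold NF-κB in the cytoplasm. IKKε (Ikbke) and TBK1 are the relatives that phosphorylate IRF3 and IRF7, and TRAFs and cIAP2 (Birc3) build the ubiquitin chains and scaffolds that bring these kinases to receptors.

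The 4 kinases share an activation segment, the loop of the catalytic domain whose phosphorylation switches the kinase on. Its coding sequence shows the pairs into which they fall. Each stretch of 60 bases is printed 5′ to 3′ on the coding strand, from GENCODE M21 transcripts. Capitals mark the codons of the Asp-Phe-Gly or Asp-Leu-Gly motif and the codon of the serine in Ser-x-x-Gly-Thr, where x is any residue. Any other serine of the segment is in lower case.
Ikbke, chr1:131273653-131273712, mm10, minus strand: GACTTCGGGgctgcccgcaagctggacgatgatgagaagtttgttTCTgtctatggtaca
Tbk1, chr10:121571855-121571914, mm10, minus strand: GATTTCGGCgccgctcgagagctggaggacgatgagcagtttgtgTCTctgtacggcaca
Ikbkb, chr8:22681675-22681734, mm10, minus strand: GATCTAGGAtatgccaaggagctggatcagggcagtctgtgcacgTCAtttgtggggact
Chuk, chr19:44097454-44097513, mm10, minus strand: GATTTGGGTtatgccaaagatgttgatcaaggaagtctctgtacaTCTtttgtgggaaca
Ikbke and Tbk1 have Asp-Phe-Gly and a serine at residue 172. Ikbkb and Chuk have Asp-Leu-Gly, with the serine at residue 181 of IKKβ and residue 180 of IKKα. Over the whole protein, IKKε of 717 residues and TBK1 of 729 residues were identical at 47.4% of aligned residues, and IKKβ of 757 residues and IKKα of 745 residues at 50.7%. IKKε was identical to IKKβ at 25.6% and to IKKα at 24.4%.

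Promoter sequence differed between Ikbke and Tbk1. Each window runs from 250 bases before to 50 bases after the annotated start, 5′ to 3′ on the gene's strand, from RefSeq on GRCm38.p6, and capitals mark CpG dinucleotides.
Ikbke, chr1:131279514-131279813, minus strand: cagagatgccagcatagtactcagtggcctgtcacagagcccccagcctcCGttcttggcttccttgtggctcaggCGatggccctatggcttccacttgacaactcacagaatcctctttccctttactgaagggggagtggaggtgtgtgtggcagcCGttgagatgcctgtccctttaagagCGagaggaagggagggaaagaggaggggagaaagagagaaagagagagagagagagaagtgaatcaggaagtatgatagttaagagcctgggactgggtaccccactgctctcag
Tbk1, chr10:121586745-121587044, minus strand: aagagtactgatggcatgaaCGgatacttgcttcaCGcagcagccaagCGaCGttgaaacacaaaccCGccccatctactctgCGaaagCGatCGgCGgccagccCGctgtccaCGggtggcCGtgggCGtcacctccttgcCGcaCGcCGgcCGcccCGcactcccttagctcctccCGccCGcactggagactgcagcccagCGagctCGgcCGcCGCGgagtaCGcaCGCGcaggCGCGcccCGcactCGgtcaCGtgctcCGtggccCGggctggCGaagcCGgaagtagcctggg
Ikbke had 4 CpG in its window and Tbk1 had 37, at percentiles 31.4 and 94.4 of 32851 mouse promoter windows, whose median was 7. Of the other members with a window, Traf1 also had 4 and Birc3 had 7, while Chuk had 21, Traf2 had 28, Traf6 had 19 and Traf3 had 59. Ikbkg had 4 windows with 15, 13, 10 and 0 CpG. The 12 windows of 9 members were searched on both strands for 3 motifs. The kB consensus, the binding motif of NF-κB, was found in 4.51% of all windows and in 1 member window, that of Traf3, as GGGGATTTCC on the plus strand directly before the start. The interferon-stimulated response element core GAAANNGAA was present in 8.56% of all windows and TATAAA in 13.6%, and neither was found in a member window. A match describes letters in a window and is not evidence of binding. The absence of a match covers these windows only, and 12 windows are too few to compare with the shares over all windows. Ikbkb had no window and was not searched.

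Sequencing depth was 21954179 expected counts in genes in replicate 1 and 17739520 in replicate 2. Of the 8 macrophage markers examined, all had a mean of 1 TPM (length-scaled transcript level) or more, up to 1411 TPM for the lysozyme gene Lyz2, and their summed level was 2452 TPM in replicate 1 against 2851 TPM in replicate 2. One of them, Fcgr1, an Fc receptor gene, was past 2-fold between the libraries after centring, with 140 TPM in replicate 1 against 82.7 TPM in replicate 2 and a log2 difference of 1.04. Of 29 markers of neutrophils, dendritic cells, lymphocytes, stromal cells and erythroid or mast cells, 3 reached a mean of 1 TPM, the highest being Batf3, a dendritic cell factor, at 4.195 TPM. The others were the neutrophil gene S100a9, with 1.00 and 1.83 TPM, and the erythroid gene Alas2, with 1.73 and 0.67 TPM. S100a8, also of the neutrophil list, had 0.72 and 0.70 TPM. The neutrophil genes Ly6g and Elane and the T-cell genes Cd3e and Cd3g had 0 counts in both libraries. A count of 0 allows up to 0.137 CPM (counts scaled to library size) in replicate 1 and 0.169 in replicate 2. Dendritic markers summed to 7.32 TPM in replicate 1 against 5.03 TPM in replicate 2, and the part of other cell types in the results was not tested.

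Ikbke was the most abundant of the 10 genes in both libraries. In bulk RNA of this kind, more expressing cells and more RNA per cell cannot be told apart. It had 345.8 TPM in replicate 1 against 269.18 TPM in replicate 2, a mean of 307 ± 54.2 TPM (SD, n = 2). The gene, ENSMUSG00000042349.13, lies on the minus strand of chromosome 1 at 131254343 to 131279606 in mm10. Its 20437 and 11229 expected counts had exact 95% Poisson intervals of 20158 to 20719 and 11022 to 11439, which cover counting error only. The deposited TPM bounds of Ikbke, 326.3 to 341.5 and 249.9 to 265.4, lay below the TPM listed for it in both libraries. Ikbke ranked 74th of the 10050 protein-coding genes with a mean of 1 TPM or more, at percentile 99.3. Genes just above it included Slfn4 and Clec2d, with means of 323 and 308 TPM, and those next below it were H3f3b, Cxcl10 and C1qc, with 303, 299.9 and 299.8 TPM. The chemokine gene Cxcl10 had 432.87 TPM in replicate 1 against 166.99 TPM in replicate 2. Clec2d, at 343.3 and 271.94 TPM, lay within 3 TPM of Ikbke in both libraries.

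Tbk1, the closest relative of Ikbke, was the next kinase by TPM. Its level was 58.86 TPM in replicate 1 against 51.54 TPM in replicate 2, a mean of 55.2 ± 5.18 TPM (SD, n = 2), from 3347 and 2324 expected counts. Chuk, the kinase needed for the non-canonical NF-κB pathway, had 33.45 and 45.09 TPM, a mean of 39.3 ± 8.23 TPM (SD, n = 2). Ikbkb, the main IκB kinase of the canonical pathway, had 30.49 and 37.96 TPM, a mean of 34.2 ± 5.28 TPM (SD, n = 2). Tbk1 was above Chuk and Ikbkb in both libraries with no overlap of their ranges, whereas Chuk and Ikbkb overlapped. By TPM before centring, Ikbke and Tbk1 were higher in replicate 1, and Chuk and Ikbkb were higher in replicate 2. After centring on the median gene, the log2 differences of Chuk and Ikbkb were only -0.13 and -0.02.

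Set against the mean of Tbk1, Ikbkb and Chuk, Ikbke was 8.45-fold higher in replicate 1 and 6.00-fold higher in replicate 2. On the log2 scale the ratio was 3.08 and 2.58, a mean of 2.83 ± 0.35 (SD, n = 2). Over Tbk1 alone the ratio was 5.87-fold in replicate 1 and 5.22-fold in replicate 2. It was 10.3-fold and 5.97-fold over Chuk, and 11.3-fold and 7.09-fold over Ikbkb. All 3 ratios were thus larger in replicate 1, and the ratio to Tbk1 differed least between the libraries. Ikbke made up 73.8% of the summed TPM of the 4 kinases in replicate 1 and 66.7% in replicate 2, and 56.2% and 51.5% of the summed TPM of all 10 genes.

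**Figure D1:**
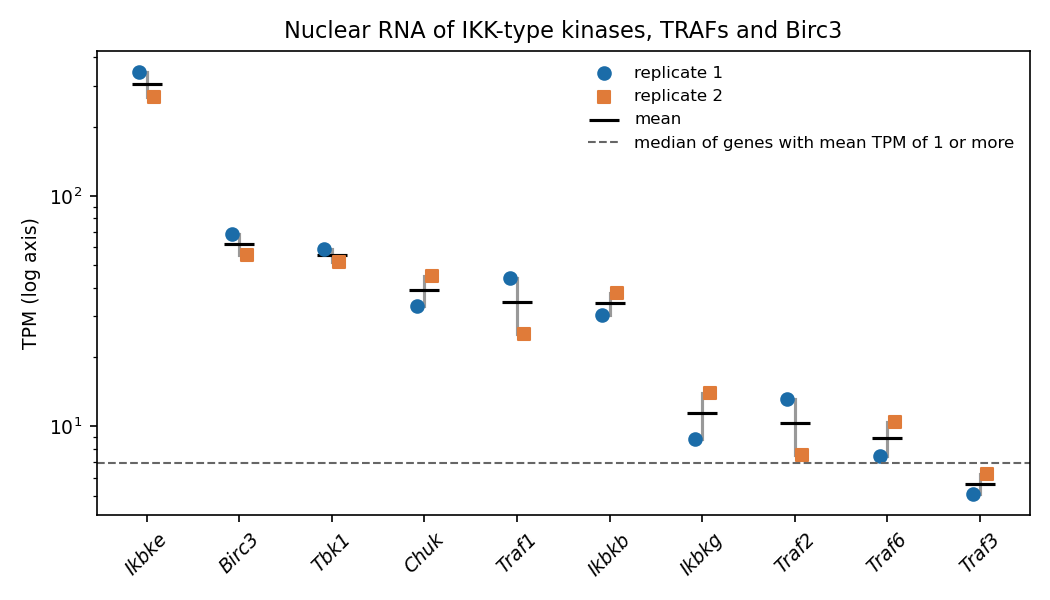
TPM of each gene (log axis) in replicate 1 (circles) and replicate 2 (squares), with the mean as a bar and the dashed line at the median of 6.935 TPM of genes with a mean of 1 TPM or more. Ikbke stands above the other 9 genes in both libraries, and Traf3 is the only gene below the line.

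Because the kinases differ in length and in annotated transcripts, the contrast was also taken in 3 other ways. From counts not divided by length, Ikbke was 6.11-fold above Tbk1 in replicate 1 and 4.83-fold in replicate 2. Over Ikbkb it was 7.71-fold and 4.57-fold higher by counts, and in replicate 2 Ikbkb was the next kinase by this measure. When TPM was summed over protein-coding transcripts only, Ikbke had 177.34 and 125.37 TPM, against 36.22 and 36.29 TPM for Tbk1, 15.15 and 24.11 TPM for Chuk, and 12.61 and 5.48 TPM for Ikbkb. The ratio to Tbk1 was then 4.90-fold in replicate 1 and 3.45-fold in replicate 2, the lowest of the settings tried. The ratio to Ikbkb was 14.1-fold and 22.9-fold. The value of replicate 2 rests on an uncertain estimate. Coding transcript Ikbkb-201 had 3.47 TPM there, with deposited bounds of 1.2e-04 to 6.06 TPM, while the whole Ikbkb gene had 37.96 TPM. In the transcript table estimated in another way, the ratio to the mean of the 3 kinases was 3.34 in replicate 1 and 2.62 in replicate 2 on the log2 scale. That table gave Ikbke 147.6 TPM in replicate 1 against 272.6 TPM in replicate 2. Its level in replicate 1 and its uncentred direction between libraries thus depend on the table. All 10 genes were lower in replicate 1 there before centring. After centring on the median gene, the log2 difference of Ikbke was 0.40 there and 0.65 from gene TPM, higher in replicate 1 in both. Ikbke was the highest kinase in both libraries in every one of these settings.

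**Figure D2:**
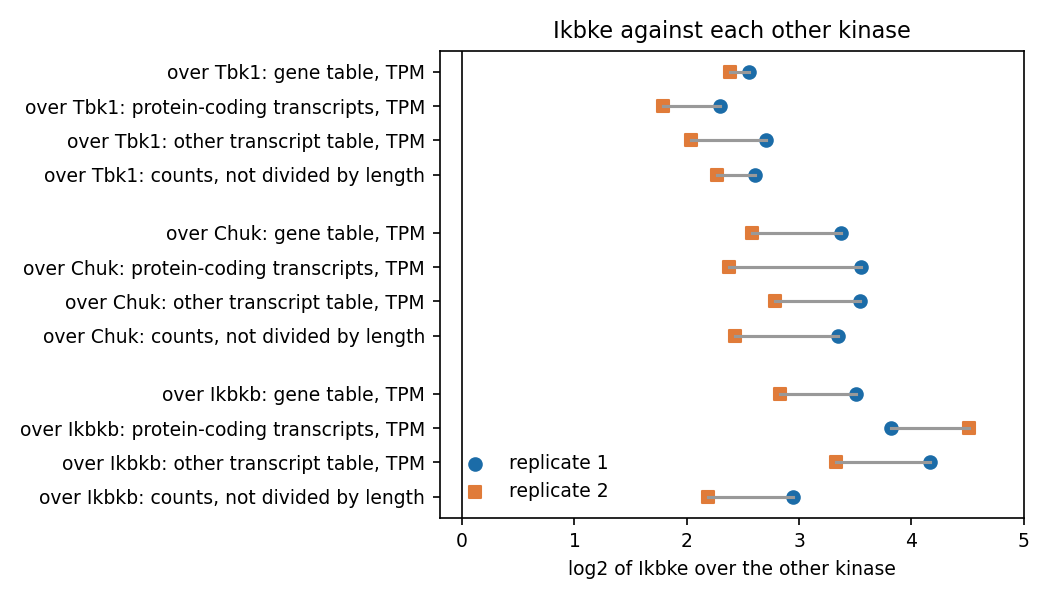
Log2 ratio of Ikbke over Tbk1, Chuk and Ikbkb in replicate 1 (circles) and replicate 2 (squares), from gene TPM, from protein-coding transcripts, from the other transcript table and from counts. Every point lies above 0, and the lowest is 1.79, over Tbk1 from protein-coding transcripts in replicate 2.

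By gene TPM, the scaffold of the canonical complex was less abundant than its catalytic subunits. Ikbkg, which encodes the ubiquitin-binding subunit NEMO, had 8.85 TPM in replicate 1 against 13.91 TPM in replicate 2, a mean of 11.4 ± 3.58 TPM (SD, n = 2). Both values lay below every value of Chuk and Ikbkb. Over protein-coding transcripts alone, Ikbkg had 8.39 and 12.78 TPM and was below Ikbkb in replicate 1 but above it in replicate 2. On chromosome X the gene shares 418 exon bases with G6pdx on the opposite strand, which had 1170 and 965.49 expected counts, against 1295 and 1205.51 for Ikbkg. Whether counting used strand was not stated in the sources used here, so reads from that stretch cannot be told apart. Ikbke likewise shares 159 exon bases with the antisense gene Gm28914 and 65 with Gm28913, but these had 137 and 79, and 235 and 139, expected counts, far fewer than Ikbke.

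Among the TRAFs, Traf1 was the most abundant in both libraries. Traf1, which lacks the RING domain of its relatives and pairs with TRAF2, had 44.24 TPM in replicate 1 against 25.26 TPM in replicate 2, a mean of 34.8 ± 13.4 TPM (SD, n = 2). Traf2, the adaptor that brings cIAP proteins to TNF receptor complexes, had 13.21 and 7.51 TPM, a mean of 10.4 ± 4.03 TPM (SD, n = 2). Both were higher in replicate 1. Traf6, the ubiquitin ligase of the MyD88 arm of TLR4 signalling, had 7.43 and 10.41 TPM, a mean of 8.92 ± 2.11 TPM (SD, n = 2). Traf3, which restrains the non-canonical pathway and takes part in TBK1 activation, had 5.08 and 6.21 TPM, a mean of 5.645 ± 0.799 TPM (SD, n = 2). Before centring, Traf6 and Traf3 were higher in replicate 2, and their ranges did not overlap, whereas Traf2 overlapped Traf6. By protein sequence Traf1 was nearest to Traf2, at 47.5% of aligned residues, and Traf3 and Traf6 were identical at 28.7%.

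Birc3 was second to Ikbke by TPM in both libraries. This gene for the ubiquitin ligase cIAP2 had 68.36 TPM in replicate 1 against 55.28 TPM in replicate 2, a mean of 61.8 ± 9.25 TPM (SD, n = 2), from 3076.91 and 1967 expected counts. Its paralogue Birc2, which encodes cIAP1, had 19.16 and 26.02 TPM, below both values of Birc3. Birc3 was above Tbk1 by TPM in both libraries although their ranges overlapped, and by expected counts it was below Tbk1 in both.

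By mean TPM the order of the 10 genes was Ikbke, Birc3, Tbk1, Chuk, Traf1, Ikbkb, Ikbkg, Traf2, Traf6 and Traf3. Neighbours whose ranges did not overlap were Ikbke and Birc3, Tbk1 and Chuk, Ikbkb and Ikbkg, and Traf6 and Traf3. The other 5 neighbouring pairs overlapped, so their order is within the spread of the libraries. All 10 genes had a mean of 1 TPM or more, and 9 lay above the median of the 12952 such genes, where by definition 50.0% of genes do. Traf3 was the exception. No test was possible, since 2 libraries of 1 group hold no contrast of conditions.

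The deposited transcript tables divide each gene among its annotated transcripts, and these shares are estimates because the transcripts overlap. For 9 of the 10 genes the transcript with the largest mean share was a protein-coding one, while 84.5% of the 9280 protein-coding genes with more than 1 transcript, and 66.4% of all genes tested, were led by one. The exception was Traf1, whose single-exon retained-intron transcript Traf1-208 held 24.8% of the gene's TPM in replicate 1 and 27.8% in replicate 2, against 26.5% and 20.0% for the coding transcript Traf1-201. The order of these Traf1 transcripts was opposite in the libraries.

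By TPM in the main transcript table, Ikbke RNA was divided almost evenly between coding and retained-intron transcripts. The share of retained-intron transcripts was 48.7% of TPM in replicate 1, against 53.4% in replicate 2, and their share of the gene's counts was 31.2% and 37.9%. In TPM this placed Ikbke at percentile 85.1 of the 6243 protein-coding genes that have such a transcript, whose median share was 26.2%. By counts it stood at percentile 75.5, with a median of 15.4%. The other transcript table placed more on retained-intron transcripts, 54.2% of Ikbke TPM in replicate 1 and 64.0% in replicate 2. In the main table the coding transcript Ikbke-201 of 22 exons held 38.4% of TPM in replicate 1, against 34.8% in replicate 2. The short retained-intron transcripts Ikbke-205 and Ikbke-207 came next, with 16.9% and 23.4%, and with 16.7% and 13.8%.

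Ikbke-205 is 797 bases long and keeps the last 323 of the 1152 bases of intron 7, and Ikbke-207 is 741 bases long and keeps the last 294 of the 636 bases of intron 10. Ikbke-206, of 5856 bases, keeps introns 17, 18 and 19 whole, and held 6.53% and 9.13% of TPM but 3813.89 and 2837.2 expected counts. The intron ends retained in Ikbke-205 and Ikbke-207 are printed 5′ to 3′ on the minus strand of mm10. The last 60 intron bases are in lower case and the first 24 bases of the next exon in capitals.
Ikbke-205, chr1:131272195-131272278: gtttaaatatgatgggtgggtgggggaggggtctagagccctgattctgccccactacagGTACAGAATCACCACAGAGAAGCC
Ikbke-207, chr1:131270227-131270310: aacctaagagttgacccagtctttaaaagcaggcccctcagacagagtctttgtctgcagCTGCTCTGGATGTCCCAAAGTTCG
Both stretches end in the ag of a splice acceptor, and neither transcript contains the donor end of its intron. In nuclear RNA, reads inside such a stretch from a transcript not yet spliced and from one that keeps the intron cannot be told apart in these tables.

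**Figure D3:**
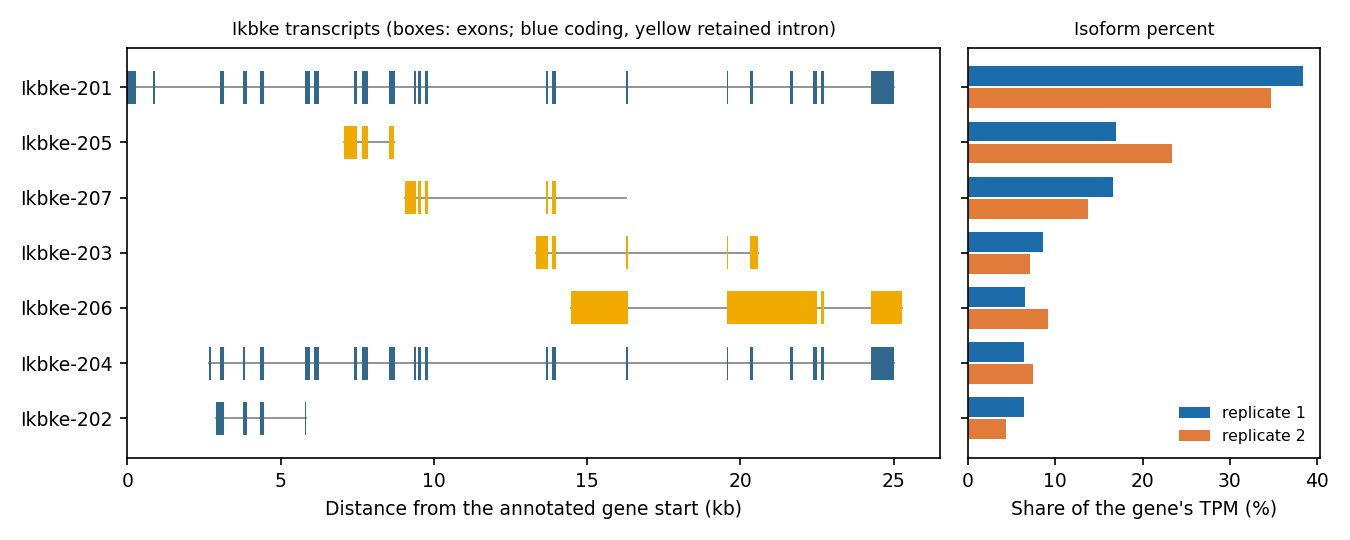
Left, exons of the 7 annotated Ikbke transcripts by distance from the annotated gene start in kb, with coding transcripts in blue and retained-intron transcripts in yellow; right, each transcript's share of the gene's TPM in replicate 1 and replicate 2. In these shares Ikbke-201 is the largest in both libraries, 38.4% and 34.8%, and the retained-intron transcripts Ikbke-205 and Ikbke-207 come next. In the other transcript table, not drawn, Ikbke-207 leads in both libraries.

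In retained-intron share of TPM, Chuk and Ikbkb stood near Ikbke, at percentiles 84.8 and 82.6, and Tbk1 stood lower, at percentile 57.6. By counts Chuk, Ikbkb and Tbk1 stood at percentiles 63.1, 84.9 and 30.3. Retained-intron transcripts held 35.0% of Tbk1 TPM in replicate 1, against 25.9% in replicate 2, but only 7.56% and 5.62% of its counts. For Chuk they held 54.7% and 46.5% of TPM, with 25.9% and 22.1% of counts. For Ikbkb the share was 47.0% and 49.6% of TPM, and 44.6% and 48.5% of counts. The share in TPM was thus at least 46.5% in both libraries for Ikbke, Chuk and Ikbkb, and lower for Tbk1. In the other transcript table it was 73.0% and 65.4% for Chuk, 54.7% and 52.7% for Ikbkb, and 36.3% and 34.4% for Tbk1. In the main table Tbk1-201 led its gene with 59.7% and 70.4% of TPM, and Chuk-201 with 37.1% and 42.7%. Behind them, the retained-intron transcripts of at least 10% were Tbk1-207 with 13.4% and 14.8%, Tbk1-205 with 12.7% and 0.39%, Tbk1-203 with 8.95% and 10.7%, Chuk-207 with 17.2% and 17.9%, Chuk-208 with 16.4% and 14.3%, and Chuk-205 with 14.4% and 8.61%. The coding transcript Chuk-202 held 8.15% and 10.8%.

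The transcript estimates of Ikbkb differed widely between the libraries. Its coding transcript Ikbkb-201 held 35.0% of TPM in replicate 1, against 9.13% in replicate 2. The nonsense-mediated decay transcript Ikbkb-203 was listed at 0 counts in replicate 1 and at 713.8 counts, 27.7% of TPM, in replicate 2. These transcripts are of nearly the same length, 3580 bases for Ikbkb-201 and 3536 bases for Ikbkb-203. Retained-intron transcript Ikbkb-211 held 12.7% and 12.5%, close to the same in both. The other transcript table also gave Ikbkb-201 a larger share in replicate 1, at 29.2% against 5.30% in replicate 2, and placed 17.7% on Ikbkb-203 in replicate 2.

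**Figure D4:**
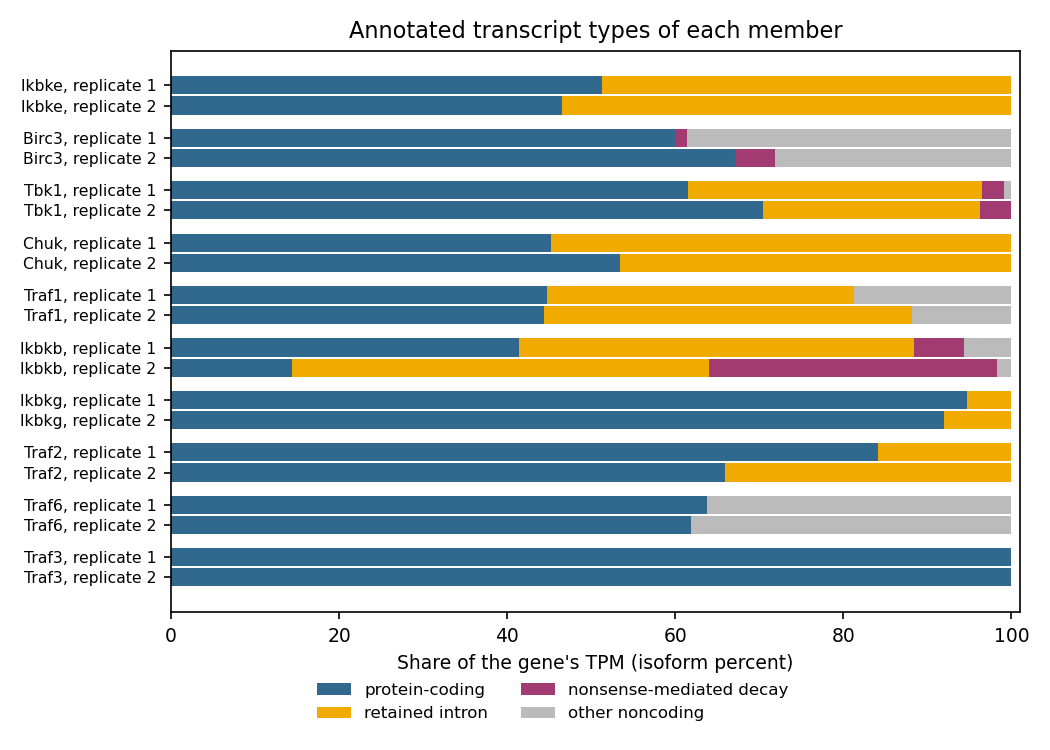
Share of each gene's TPM held by protein-coding, retained-intron, nonsense-mediated decay and other noncoding transcripts, as stacked bars from 0 to 100%, with replicate 1 above replicate 2 for each gene. Ikbke, Chuk and Ikbkb have retained-intron shares of 46.5% or more in both libraries, whereas Traf3 lies at 100% protein-coding.

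The scaffold, the TRAFs and Birc3 showed a wider range of transcript makeup. Ikbkg was 94.8% protein-coding by TPM in replicate 1 and 92.0% in replicate 2, but its leading coding transcript differed between the libraries, with Ikbkg-202 at 40.2% and 11.4% and Ikbkg-203 at 11.8% and 40.9%. Ikbkg-206 held 21.4% and 21.3%, and Ikbkg-207 held 19.8% and 15.1%. The other transcript table gave Ikbkg-206 only 4.32% in replicate 1 and 4.3e-08% in replicate 2, and Ikbkg-207 14.9% and 30.9%. Traf3 was listed as entirely protein-coding, with 75.7% and 71.2% on Traf3-201 and 21.4% and 25.5% on Traf3-204, although the other transcript table placed 17.7% and 7.73% on a retained-intron transcript.

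Traf2 had a retained-intron share of 15.9% in replicate 1 and 34.1% in replicate 2, all on Traf2-203. Its coding transcript Traf2-202 held 38.0% and 14.3%, and Traf2-201 held 46.1% and 51.6%. For Traf1 the retained-intron share was 36.5% and 43.9% of TPM. It was carried by Traf1-208 and by Traf1-206, at 11.7% and 16.1%, while the noncoding Traf1-203 held 11.3% and 8.21% and the coding Traf1-209 held 7.60% and 11.8%. By this measure both genes had the larger retained-intron share in replicate 2. In the other transcript table this held for Traf2, at 30.7% and 58.3%, but the shares of Traf1 were 31.7% and 31.5%.

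Neither Traf6 nor Birc3 has an annotated retained-intron transcript. Traf6-201 held 63.8% of TPM in replicate 1, against 61.9% in replicate 2, followed by the noncoding Traf6-202 with 20.4% and 26.7% and Traf6-203 with 15.9% and 11.4%. Birc3-201 held 43.4% and 43.6%, and the coding Birc3-202 held 13.2% and 22.7%. The noncoding transcripts Birc3-206, with 21.8% and 14.2%, and Birc3-205, with 16.8% and 14.0%, are only 360 and 355 bases long and had 67 and 23, and 50 and 22, expected counts. Noncoding transcripts were thus 38.6% and 28.2% of Birc3 TPM but 3.80% and 2.29% of its counts. The other transcript table placed 64.0% and 59.4% of Birc3 TPM on them.

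Differences between the libraries were compared as log2 of TPM + 1 in replicate 1 over replicate 2, after subtracting the median gene's value of -0.29, a scale that understates the change of low genes. Traf1 and Traf2 were more than 2-fold higher in replicate 1, with centred differences of 1.07 and 1.03, and 0 of the 10 genes were more than 2-fold lower. Among all 12952 genes, 4.51% were more than 2-fold higher in replicate 1 and 2.78% more than 2-fold lower. Both genes lay just past the threshold, and without the centring their differences were 0.78 and 0.74, within 2-fold. Ikbke followed at 0.65, at percentile 88.9 of all genes, then Birc3 at 0.59 and Tbk1 at 0.48. The remaining genes were Traf3 at 0.04, Ikbkb at -0.02, Chuk at -0.13, Traf6 at -0.15 and Ikbkg at -0.31. The median over the 10 genes was 0.26, where that of all genes is 0 by construction. Without centring Traf3 was at -0.25 and the signs of the other 9 genes were as above, and with a pseudocount of 0.1 Ikbkb was at 0.03. With no filter on low values Traf3 was at -0.13. In the other transcript table Tbk1 was at -0.23, Ikbkg at 0.01 and Traf6 at 0.12. Whether the labelled RNA input has a part in these differences cannot be told apart from the replicate.

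**Figure D5:**
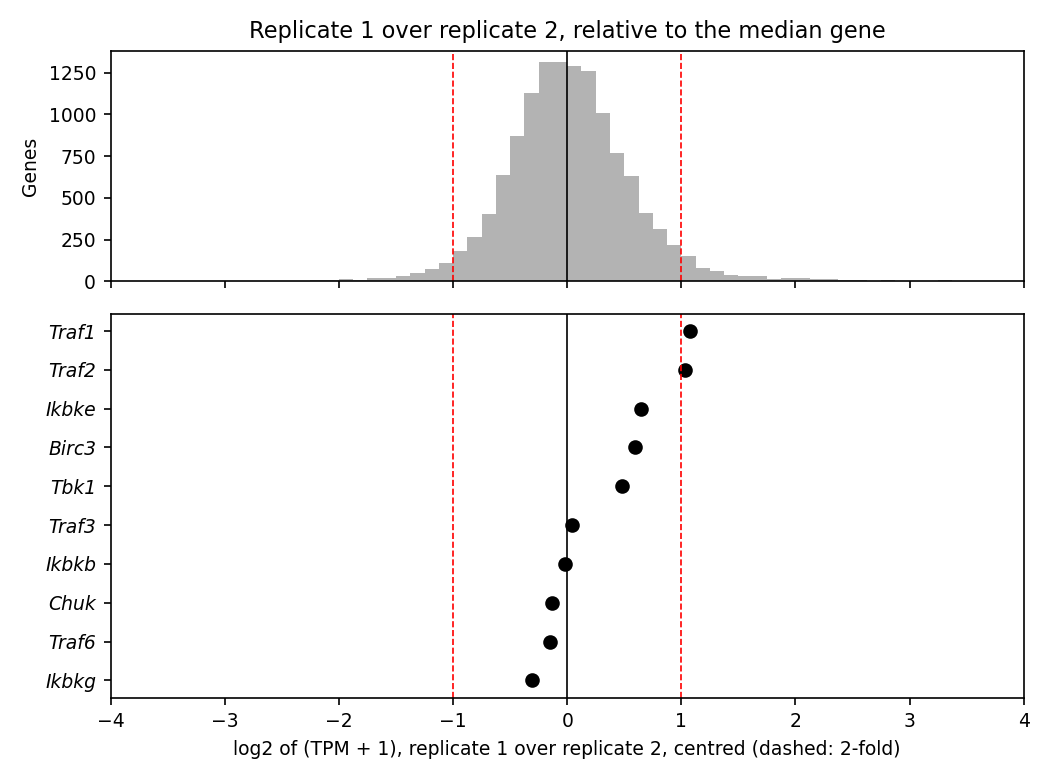
Top, number of genes with a mean of 1 TPM or more by centred log2 difference in TPM + 1, replicate 1 over replicate 2; bottom, the same difference for each of the 10 genes, with dashed lines at 2-fold. Traf1 (1.07) and Traf2 (1.03) lie just past the upper line and the other 8 genes lie between the lines.

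Around these genes, 36 further genes of the pathway were examined. Of these, 34 had a mean of 1 TPM or more and 29 were above the median gene. Of all 55536 annotated genes, 12952 had a mean of 1 TPM or more, and by definition 50.0% of those lie above the median. Irf7, the interferon regulatory factor that IKKε and TBK1 phosphorylate, was the only one of the 36 above Ikbke by mean TPM. It had 535.01 TPM in replicate 1 against 249.28 TPM in replicate 2, where it was below Ikbke. It was also the only one of the 36 past 2-fold between libraries, with a centred difference of 1.39. Among all 12952 genes, 4.51% were more than 2-fold higher in replicate 1 and 2.78% more than 2-fold lower. Irf3, the other substrate, had 37.93 and 35.54 TPM. Irf7 was thus far above Irf3 in both libraries.

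Among adaptors of TBK1 and IKKε, Azi2 was the highest with 54.97 TPM in replicate 1 against 56.12 TPM in replicate 2, and Tbkbp1 the lowest by the mean, with 6.22 and 4.56 TPM, although Ticam1 was below it in replicate 1 at 5.76 TPM. Of the activators of the canonical complex, Map3k8, the kinase TPL2, had 51.64 and 55.36 TPM and Tab3, a subunit of the TAK1 complex, had 3.64 and 3.23 TPM. Of the linear ubiquitin ligase subunits, Rnf31 had 32.14 and 26.03 TPM, Sharpin 29.42 and 28.94 TPM, and Rbck1 was highest with 37.96 and 29.91 TPM. In the MyD88 arm, the kinase gene Irak2 was highest by the mean, with 33.32 and 26.92 TPM, although Tlr4 was above it in replicate 2 at 31.34 TPM, and the adaptor gene Tirap was lowest with 3.03 and 3.21 TPM. None of these genes reached Ikbke.

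Of the ubiquitin-conjugating enzymes, Ube2d3 had 76.49 TPM in replicate 1 against 101.06 TPM in replicate 2, and Ube2v1, a partner of the K63-chain enzyme, had 16.58 and 21.94 TPM. Of the TRAFs outside the 10 genes, Traf7 had 30.74 and 24.77 TPM, and Traf4 was low with 0.64 and 1.04 TPM. Of the other inhibitor-of-apoptosis genes, Birc6 had 52.31 and 101.13 TPM, and Birc5, a gene of dividing cells, had 0.74 and 0.65 TPM. Birc6 was below Birc3 in replicate 1 and above it in replicate 2.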

How the data were processed

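Nuclear RNA of 2 libraries was analysed from gene and transcript tables on mm10 and GENCODE M21, a build named in text files that the authors deposited. The gene tables hold deposited expected counts, which are estimated reads without normalisation (file headers). TPM in the deposited tables is that estimate per effective length, brought to a fixed sum in each library. Isoform percent, as deposited by the authors, is the part of a gene's TPM that falls on a transcript. A second deposited transcript table gives its own estimated counts and TPM. The aligner, the quantifiers with their versions and the strandedness of counting remain not given in the sources used here.

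Expected counts of 8 of the 10 genes were whole numbers in both libraries (tolerance 0.005), and those of Birc3 and Ikbkg were not. The tables' 26345 entries without a gene name, 0.581% and 0.434% of counts, stayed out. Values are given per library, with mean and SD. Genes with a mean of 1 TPM or more were compared between libraries as log2(TPM + 1), replicate 1 over replicate 2. The values were centred on the median and called past 2-fold. The calculation was tested on simulated data with Poisson error only and changes well past 2-fold. That test does not cover differences near 2-fold, such as those of Traf1 and Traf2. Exact 95% Poisson intervals and the limit of 3 counts for a count of 0 cover counting error only. Expected counts were rounded to whole numbers for TMM scaling in edgeR 4.0.16 (R 4.3.3). Other steps used Python 3.11.15, pandas 2.3.3 and scipy 1.17.1. Proteins were translated from GENCODE coding sequences and aligned with Biopython 1.88 (BLOSUM62, gap opening 11, extension 1). Alternatives changed the quantification, length scaling, pseudocount, filter, centring, scaling and libraries used.

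The genes, lists and markers were chosen with earlier results of these data known. Named were the 10 genes, their transcripts with at least 10% of TPM in either library, the highest and lowest gene of each pathway list, any list gene past 2-fold, and the 3 protein-coding genes on each side of Ikbke by mean TPM, of which 1 is not reported here. Birc2, Tlr4, Ticam1, Sharpin, Ikbke-206, some marker genes and the overlapping genes were named in addition, after their values were seen.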

Additional observations from a re-analysis of the deposited data

How the results depend on the processing

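The log2 ratio of Ikbke to the mean of the other 3 kinases was 2.83, and it lay within 1 SD of that at 2.98 in the other transcript table, 2.62 from counts, 2.78 from protein-coding transcripts and 2.80 with a pseudocount of 1. Against the highest of the other kinases it was 2.47. With single libraries it was 2.58 without replicate 1 and 3.08 without replicate 2. The number of genes more than 2-fold apart between libraries, 2 (Traf1 and Traf2), was 2 with a pseudocount of 0.1. It was 1, Traf1, with a minimum of 10 counts, with TMM scaling, with median-of-ratios scaling or among protein-coding genes only. It was 0 with a pseudocount of 5, with no filter, with no centring or in the other transcript table. The share of all genes more than 2-fold higher in replicate 1 was also below 4.51% in every setting with 1 or 0. It was 2.29% to 3.92% where the number was 1, with 1.3% to 2.32% lower. It was 1.61% with a pseudocount of 5 and 2.37% with no filter, with 0.749% and 3.03% lower. The other transcript table had shares of 2.79% and 5.05%, and a pseudocount of 0.1 gave 6.9% and 5.92%. The 10 genes are too few to compare with these shares. Without centring, 2.55% of all genes were more than 2-fold higher in replicate 1 and 7.10% lower, against 4.51% and 2.78%; the cause was not tested. Genes above the median gene numbered 8 to 10 over all settings, against 9. Genes led by a protein-coding transcript numbered 7 in the other transcript table, where Birc3, Ikbke and Traf2 were not, 8 without replicate 1, where Ikbkb and Traf1 were not, and 10 without replicate 2. No paired analysis was possible because there was 1 group. Depth limited Traf2 most, with 471 counts in replicate 2, and transcript shares of overlapping transcripts carry an estimation error that the counts do not show.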
